A study of Mus musculus with 47 samples.

Results

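Carbamoyl phosphate synthetase 1 (Cps1), arginase 1 (Arg1), liver glutaminase (Gls2), glutamine synthetase (Glul) and alanine aminotransferase (Gpt) are 5 liver enzymes that move nitrogen between amino acids, ammonia, glutamine and urea. They were taken by gene symbol from the array's annotation, and the probeset with the highest mean stood for a gene with more than 1. Of the 5 genes, 4 had a probeset among the 6889 genes with 1 symbol in the table used here, and Gls2 was not analysed here. Cps1 lies at chr1:67122426-67231267, Arg1 at chr10:24915207-24927470, Glul at chr1:153899929-153909723 and Gpt at chr15:76696726-76699675 in the mouse build GRCm38.p6. Cps1, Arg1 and Gpt each had 1 probeset and Glul had 2.

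The 47 arrays (Affymetrix Mouse Gene 1.0 ST, 1 per mouse) held liver RNA of female albino SKH:QS mice, a hairless strain kept as an inbred colony, which entered the study as young adults. Mice had 30 treatments over 36 weeks with a ZnO sunscreen, a TiO2 sunscreen that also held organic filters, or an organic sunscreen, each with UVR of 29 kJ/m2 per treatment (ZnO + UVR, TiO2 + UVR, Organic + UVR) or without it (ZnO-UVR, TiO2-UVR, Organic-UVR), while mice without sunscreen also had UVR (Control + UVR) or no UVR (Control-UVR). All groups wore collars and were washed, and livers were taken in week 36, about a day after the last irradiation. Each group had 6 arrays, except ZnO + UVR with 5, drawn from mice that reached the end of the study. Each sunscreen was a single commercial product, and the methods put each group in 1 cage while the sample labels give individual housing; with 1 cage per group, cage and treatment cannot be told apart.

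Values are log2 levels from robust multi-array average, whose precision is limited by how many arrays a group has. Of 16 measured hepatocyte markers of 23 listed, the list mean ran over the arrays between 10.71 and 11.88, while the median of all transcripts ran between 5.12 and 5.45. The lists of cholangiocytes (3 of 7 measured, at most 5.35) and of fat and pancreas (2 of 9 measured, at most 5.42) stayed near that median. The 2 genes of the latter lay apart, with mean levels of 3.39 for Adipoq and 6.7 for Cela1. Organic-UVR replicate 1 stood apart, with the lowest hepatocyte mean of any array (10.71, next 11.22) and the lowest array slope (0.772, the others between 0.895 and 1.066), which is the regression slope of 1 array's levels on the average array. ZnO-UVR replicate 4 had the highest level of the red cell gene Slc4a1 (8.16, next 5.69) and of the macrophage list mean (8.5, next 7.8).

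The liver disposes of ammonia in a division of labour along the lobule. Hepatocytes around the portal vein hold the urea cycle, in which Cps1 fixes ammonia as carbamoyl phosphate in mitochondria and Arg1 splits arginine into urea and ornithine, while a thin rim of hepatocytes around the central vein holds Glul, which binds the ammonia that escapes the urea cycle into glutamine. Gpt moves the amino group of alanine to 2-oxoglutarate and so links muscle-derived alanine with glutamate and glucose formation. Glul in the central rim depends on Wnt and beta-catenin signalling.

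Of the members, Glul had an entry in the RefSeq promoter table (GRCm38.p6). Its 250 bases before the gene start are shown because Glul is the pericentral member and the motifs bear on the factors known to act on it. The window is chr1:153899679-153899928 on the plus strand, written 5′ to 3′, and capitals mark matches to CCAAT and to the GC box, spelled GGGCGG.
Glul: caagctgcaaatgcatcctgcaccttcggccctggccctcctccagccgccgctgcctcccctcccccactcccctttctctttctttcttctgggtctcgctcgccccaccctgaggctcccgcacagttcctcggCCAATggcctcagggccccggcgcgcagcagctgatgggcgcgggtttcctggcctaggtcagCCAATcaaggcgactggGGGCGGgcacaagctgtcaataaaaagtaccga
The window held 2 matches to CCAAT, which occurs on either strand in 33.8% of 32851 promoter windows of this length, and 1 to GGGCGG, which occurs in 32.7%. On either strand it held 0 matches to the letters TATAAA, those of the TATA box, which a minority of promoters hold, found in 12.4% of windows. It also held 0 matches to CTTTGA, the core bound by the Wnt pathway's TCF and LEF factors, found in 13.8%. The 4 motifs do not overlap each other, and a match describes letters, not a bound site.

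None of the 4 measured enzymes was called in any group against another. All 47 arrays were fitted together in limma with group and replicate number as terms. The calls use Benjamini-Hochberg adjustment over 9815 transcripts with a limit of 0.1. These are the transcripts of the table used here, fewer than the paper analysed, and shares of all transcripts refer to them. The count was 0 of 4 in each of 13 comparisons between groups and 3 interactions of UVR with a sunscreen, and 0 of 4 by the F test over the 8 groups. It was also 0 of 4 in each of them at an unadjusted p under 0.05, where the share of all transcripts ran between 1.52% (ZnO-UVR against Control-UVR) and 19.1% (Organic-UVR against Control-UVR). Against Control-UVR, the share of all transcripts called was 0.0509% in Control + UVR, 0% in ZnO + UVR, 0% in ZnO-UVR, 0.693% in TiO2 + UVR, 0% in TiO2-UVR, 1.65% in Organic + UVR and 3.27% in Organic-UVR. With UVR against without UVR it was 0% for ZnO, 0.652% for TiO2 and 0% for Organic, and against Control + UVR it was 0% in ZnO + UVR, 0.703% in TiO2 + UVR and 0.0611% in Organic + UVR. It was 0% for the interaction of UVR with ZnO, 0.173% with TiO2 and 0% with Organic, and 1.93% by the F test. Single arrays moved these counts: against Control-UVR, the 321 transcripts called in Organic-UVR were 66 without Organic-UVR replicate 1 and 619 without its replicate 5, the 162 in Organic + UVR were 0 without Organic + UVR replicate 4 and 1188 without its replicate 1, and the 68 in TiO2 + UVR were 24 without TiO2 + UVR replicate 6 and 162 without its replicate 1. Without replicate number as a term these 3 counts were 92, 33 and 30. With shares this small, 0 of 4 is what the background alone would mostly give, and the intervals below say more about the members than the count does.

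Cps1, the entry enzyme of the urea cycle, held nearly the same level in every group. Group values ran (lowest, median, highest) at 12.48, 12.66 and 12.72 in Control + UVR, 12.58, 12.70 and 12.81 in ZnO-UVR, 12.49, 12.62 and 12.70 in TiO2 + UVR and 12.60, 12.67 and 12.80 in TiO2-UVR. They ran at 12.51, 12.66 and 12.86 in Organic + UVR, 12.41, 12.68 and 12.73 in Organic-UVR and 12.53, 12.63 and 12.80 in Control-UVR, and the 5 ZnO + UVR livers had 12.65, 12.78, 12.64, 12.74 and 12.69. All 8 groups overlapped, and the low ends belong to single livers, above all Organic-UVR replicate 1 at 12.41. Group means fell in the order ZnO-UVR, ZnO + UVR, TiO2-UVR, Organic + UVR, Control-UVR, Control + UVR, Organic-UVR and TiO2 + UVR, and the whole range of means (0.09) was smaller than the residual SD among mice (0.099). The differences from Control-UVR lay between -0.037 (TiO2 + UVR, 95% interval -0.20 to 0.12) and 0.057 (ZnO + UVR, -0.11 to 0.23). In fold terms these intervals leave room for 0.871 to 1.17 times the Control-UVR level.

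Arg1, which releases urea in the last step of the cycle, was lowest on average in Organic-UVR, and a single liver carried that difference. Levels ran (lowest, median, highest) at 11.04, 11.51 and 11.66 in Control + UVR, 11.43, 11.58 and 11.88 in ZnO-UVR, 11.13, 11.54 and 11.85 in TiO2 + UVR and 11.34, 11.46 and 11.69 in TiO2-UVR. They ran at 11.26, 11.47 and 11.73 in Organic + UVR, 10.60, 11.45 and 11.65 in Organic-UVR and 11.39, 11.58 and 11.95 in Control-UVR, and the ZnO + UVR livers had 11.54, 11.47, 11.60, 11.73 and 11.62. The groups overlapped, with 5 of the 6 Organic-UVR livers between 11.36 and 11.65 and replicate 1 alone at 10.60. Arg1 averaged 11.33 ± 0.37 in Organic-UVR and 11.60 ± 0.20 in Control-UVR (SD, n = 6 each). The difference was -0.26 (SE 0.13, interval -0.53 to 0.005, limma adjusted p = 0.27), and 3 of 6 same-numbered pairs were higher in Organic-UVR. Without replicate 1 of Organic-UVR the difference was -0.10 (limma adjusted p = 0.849), and with the array slope as a covariate it was -0.064 (limma adjusted p = 0.863). The low array slope and low hepatocyte marker mean of that liver stand beside this value, and their part in it was not tested. The other differences from Control-UVR lay between -0.16 in Control + UVR (interval -0.43 to 0.11; -0.074 without Control + UVR replicate 1) and 0.011 in ZnO + UVR (-0.27 to 0.29). The mean order was Control-UVR, ZnO-UVR, ZnO + UVR, TiO2 + UVR, TiO2-UVR, Organic + UVR, Control + UVR and Organic-UVR, with no gap between neighbours above 0.10.

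Glul, the glutamine-forming enzyme of the central rim, had a higher mean than Control-UVR in all 7 other groups, and no difference passed the test. As those comparisons share the Control-UVR livers, their common sign is not 7 separate observations. Levels ran (lowest, median, highest) at 10.23, 10.99 and 11.14 in Control + UVR, 10.09, 10.75 and 11.57 in ZnO-UVR, 10.26, 10.93 and 11.15 in TiO2 + UVR and 10.52, 10.95 and 11.49 in TiO2-UVR. They ran at 10.66, 10.84 and 11.03 in Organic + UVR, 9.90, 10.80 and 11.16 in Organic-UVR and 10.07, 10.70 and 11.12 in Control-UVR, and the ZnO + UVR livers had 11.02, 10.53, 10.03, 10.98 and 10.99. Every group overlapped every other, and 5 of the 6 Control + UVR livers lay close together between 10.97 and 11.14. TiO2-UVR had the widest difference, at 10.98 ± 0.34 against 10.65 ± 0.40 in Control-UVR (SD, n = 6 each), or 0.33 (SE 0.21, interval -0.087 to 0.75, limma adjusted p = 0.968), with 4 of 6 pairs higher. In Control + UVR the difference was 0.25 (interval -0.17 to 0.67, limma adjusted p = 0.598) with 5 of 6 pairs higher, and it was 0.39 without Control + UVR replicate 1 and 0.14 without Control-UVR replicate 2, uncalled in both. The rest lay between 0.071 in Organic-UVR (-0.35 to 0.49) and 0.18 in Organic + UVR (-0.24 to 0.60). The interaction of UVR with TiO2 was -0.44 (interval -1.03 to 0.15, limma adjusted p = 0.705), since Glul was 0.19 lower in TiO2 + UVR than in TiO2-UVR and 0.25 higher in Control + UVR than in Control-UVR. In order the means were TiO2-UVR, Control + UVR, Organic + UVR, TiO2 + UVR, ZnO-UVR, Organic-UVR, ZnO + UVR and Control-UVR, with no gap between neighbours above 0.08.

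The highest Glul level of all, 11.57, was in ZnO-UVR replicate 4, the liver with high Slc4a1 and macrophage markers, and whether these move together was not tested. In bulk liver, fewer cells of a type and less RNA per cell cannot be told apart, which matters most for a gene of so thin a zone. The second Glul probeset is numbered between probesets of genes on chromosome 11 (C1d and Spred2), while Glul lies on chromosome 1, so what it matches is uncertain. Its own differences from Control-UVR lay between 0.07 and 0.32, all uncalled, and its level followed that of the first probeset over 47 mice (r = 0.907, values centred on the group mean, permutation p = 1e-05, the smallest 100000 resamples can give; rho = 0.877, p = 1e-05).

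Gpt, which passes the nitrogen of alanine on to glutamate, was lowest on average in both organic sunscreen groups, within wide intervals. Levels ran (lowest, median, highest) at 7.00, 8.60 and 9.02 in Control + UVR, 7.70, 8.78 and 9.17 in ZnO-UVR, 7.93, 8.46 and 8.87 in TiO2 + UVR and 8.00, 8.56 and 8.87 in TiO2-UVR. They ran at 7.27, 8.24 and 9.21 in Organic + UVR, 6.94, 8.42 and 8.90 in Organic-UVR and 8.40, 8.49 and 9.01 in Control-UVR, and the ZnO + UVR livers had 8.14, 8.55, 7.84, 9.17 and 9.08. Again all groups overlapped, and 5 of the 6 Control-UVR livers sat between 8.40 and 8.50. Gpt averaged 8.27 ± 0.76 in Organic + UVR, 8.25 ± 0.68 in Organic-UVR and 8.55 ± 0.23 in Control-UVR (SD, n = 6 each). The difference from Control-UVR was -0.28 in Organic + UVR (SE 0.26, interval -0.81 to 0.25, limma adjusted p = 0.577, 3 of 6 pairs higher) and -0.30 in Organic-UVR (-0.83 to 0.24, adjusted p = 0.537, 1 of 6 pairs higher). Without Organic-UVR replicate 1, the Organic-UVR difference was -0.076, and leaving out Organic + UVR replicate 2 gave -0.10 in Organic + UVR while leaving out its replicate 1 gave -0.52. With the array slope as a covariate both turned positive (0.089 in Organic + UVR and 0.11 in Organic-UVR). With arrays weighted by their quality the Organic + UVR difference was -0.52 and passed the threshold (limma adjusted p = 0.0986). That setting also called many more transcripts in this comparison than the 162 of 9815 in the main fit. Their number is given with the alternatives below, and beside it the call says little about Gpt. The means were ordered ZnO-UVR, ZnO + UVR, Control-UVR, TiO2-UVR, TiO2 + UVR, Control + UVR, Organic + UVR and Organic-UVR.

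**Figure D1:**
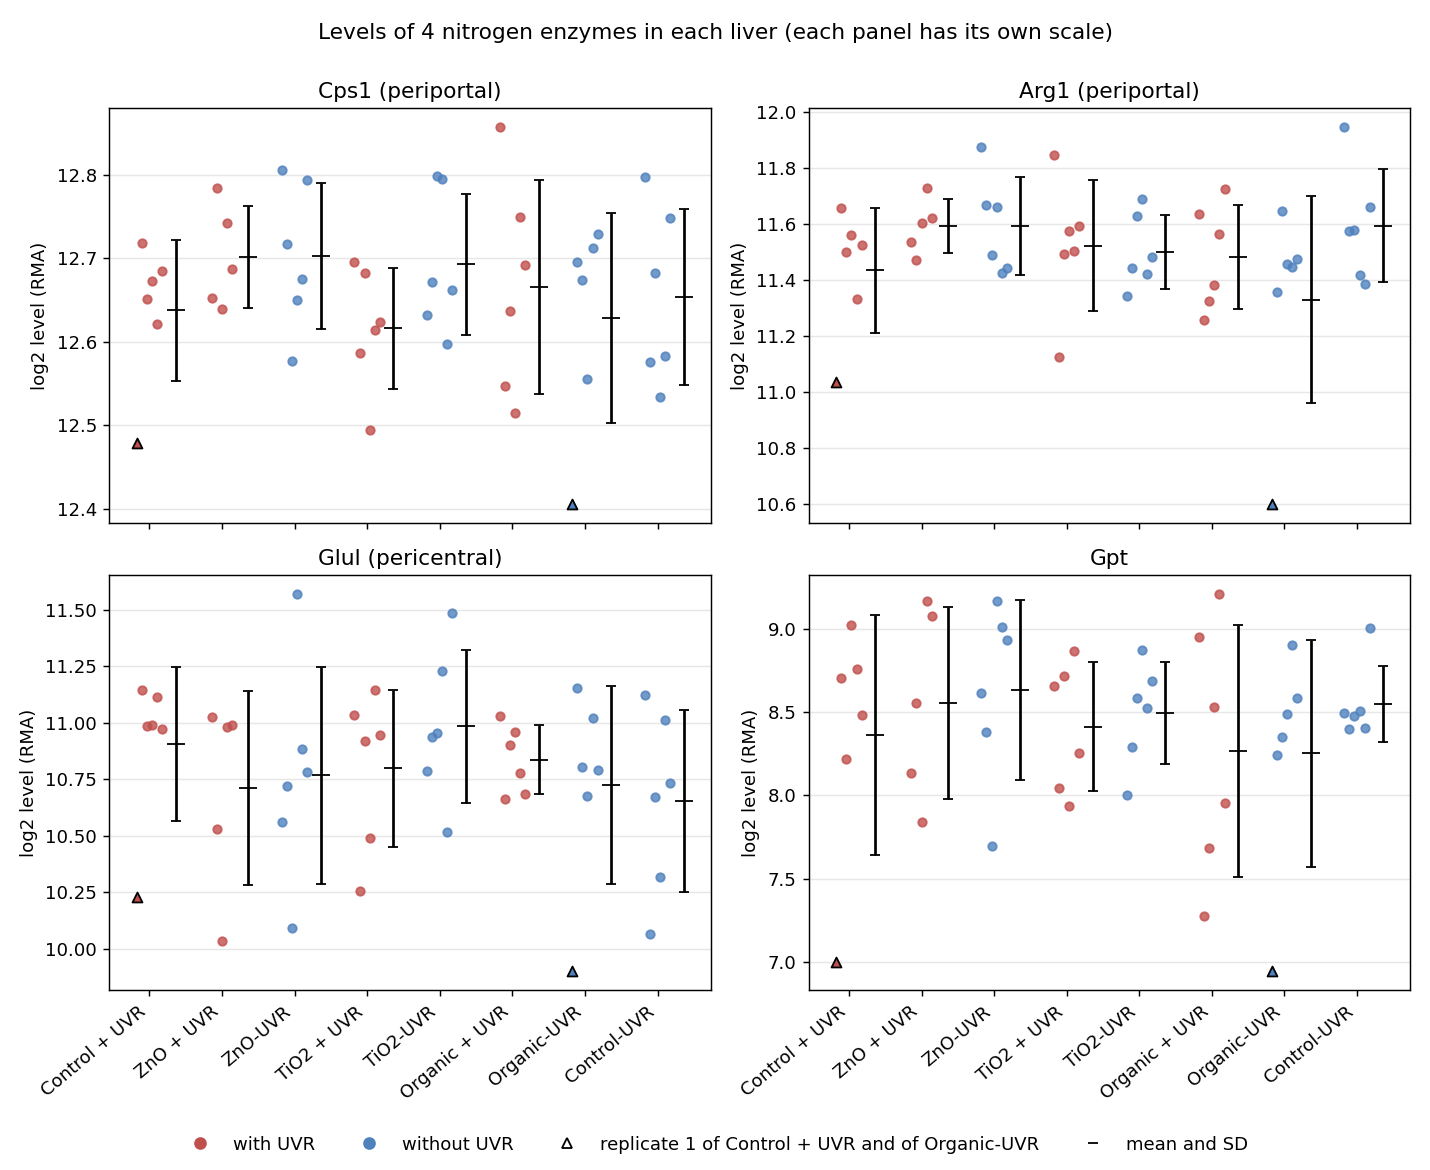
Log2 level (robust multi-array average, vertical axis, a scale of its own per panel) of each member in every liver of the 8 groups. Points are livers, triangles replicate 1 of Control + UVR and of Organic-UVR, and bars the mean and SD; the triangle of Organic-UVR is the lowest liver of all for each gene (12.41, 10.60, 9.90 and 6.94), and all groups overlap.

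No enzyme was called in the UVR contrasts within a sunscreen or in the sunscreen contrasts under UVR. With UVR against without UVR, Cps1 differed by 0.0077 for ZnO, -0.077 for TiO2 and 0.038 for Organic, with intervals inside -0.24 to 0.20. Arg1 differed by 0.011, 0.021 and 0.15 in that order of sunscreens, with intervals inside -0.27 to 0.42, and the Organic value was -0.0086 without Organic-UVR replicate 1. Glul differed by -0.036, -0.19 and 0.11, inside -0.60 to 0.53, and Gpt by -0.053, -0.081 and 0.016, inside -0.62 to 0.55. Under UVR, Arg1 was 0.17 higher in ZnO + UVR than in Control + UVR (interval -0.11 to 0.45), 0.088 in TiO2 + UVR and 0.047 in Organic + UVR. Cps1 differed from Control + UVR by 0.073, -0.022 and 0.028 in that order of groups, with intervals between -0.18 and 0.24. Glul had differences of -0.17 (interval -0.62 to 0.27), -0.11 (-0.53 to 0.31) and -0.070 (-0.49 to 0.35), and Gpt of 0.22 (-0.34 to 0.78), 0.047 (-0.49 to 0.58) and -0.098 (-0.63 to 0.44). The 3 comparisons share the Control + UVR livers. Control + UVR replicate 1, whose array slope (0.928) was the lowest of its group, had the lowest level of its group in each of the 4 enzymes, and it entered these contrasts. The interaction of UVR with Organic for Arg1 was 0.31 (interval -0.069 to 0.69, limma adjusted p = 0.718), and 0.15 without Organic-UVR replicate 1.

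**Figure D2:**
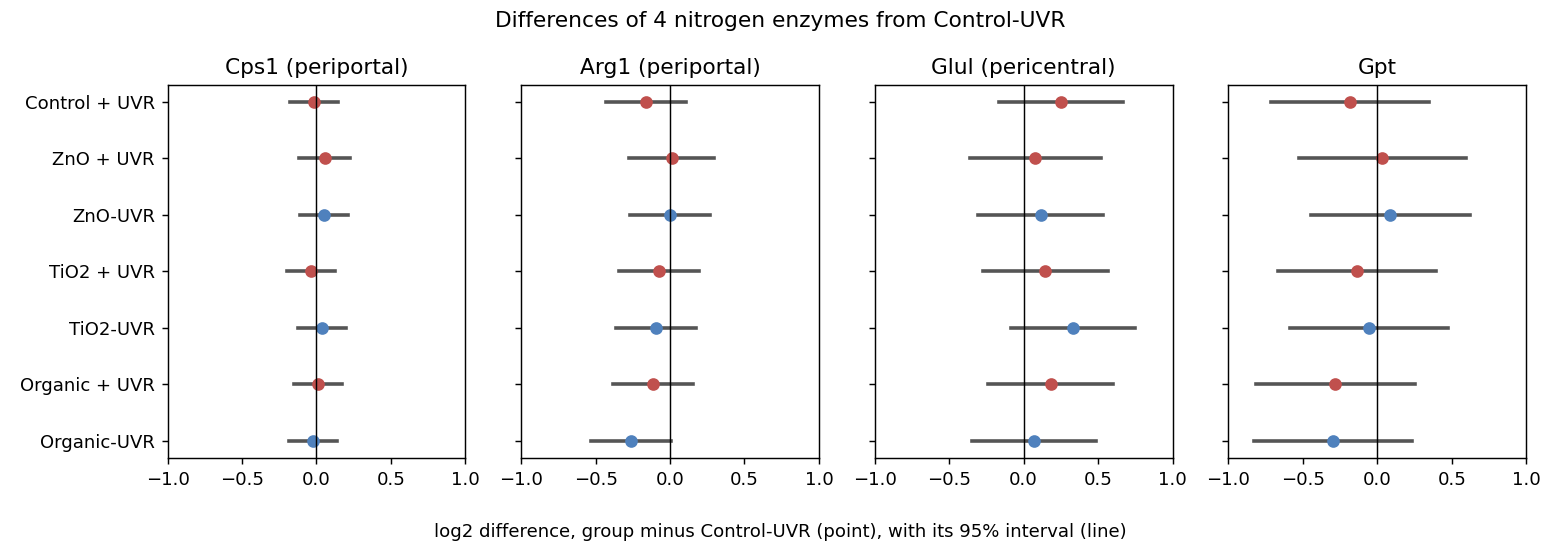
Log2 difference of each sunscreen or UVR group from Control-UVR (point; red with UVR, blue without) and its 95% interval from the limma fit (line), for each enzyme on the same horizontal scale. Every interval holds 0, and they widen across the panels, with Cps1 the narrowest and Gpt the widest.

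What set the enzymes apart was how much they varied among mice of a group. The residual SD of Cps1 was 0.0993 on the log2 scale, a smaller spread than all but 0.0713% of transcripts, and its 47 livers spanned 1.37-fold. Arg1 had a residual SD of 0.227, near the median of 0.25 for all transcripts, and spanned 2.54-fold. Glul had 0.381, above 90.9% of transcripts, and spanned 3.18-fold, and Gpt had 0.494, above 97.5%, and spanned 4.81-fold. The low end of each span was the same liver, Organic-UVR replicate 1, whose array slope was the lowest of all. These shares and spans are descriptions with no test. The mean signal of Cps1 lay above that of 99.9% of transcripts. Of the 500 transcripts nearest to it in mean level, 1.4% had a smaller residual SD, and their median was 0.246. The same share was 38.4% for Arg1, 89.6% for Glul and 95.2% for Gpt, each among its own 500. Whether the top of the scale narrows the spread of Cps1 was not tested.

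**Figure D3:**
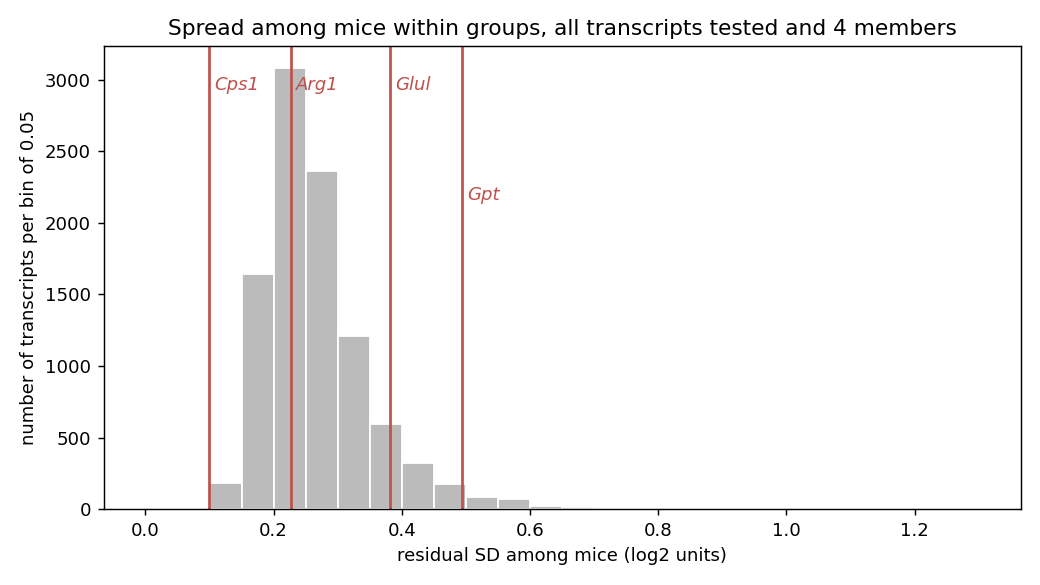
Residual SD among mice within groups (horizontal axis, log2 units) over all 9815 transcripts, in bins of 0.05 (vertical axis, transcripts per bin), with the members as lines. Cps1 (0.0993) lies at the lower edge of the distribution, Arg1 (0.227) near its peak, and Glul (0.381) and Gpt (0.494) in its upper tail.

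The enzymes varied together from mouse to mouse, as many other transcripts did with each of them. With values centred on group means over 47 mice, the pair of periportal urea cycle genes, Cps1 and Arg1, correlated at r = 0.70 (permutation p = 1e-05, adjusted p = 2e-05; rho = 0.682, adjusted p = 3e-05), and at r = 0.639 without the 2 mice farthest from the median of Cps1. Glul and Gpt correlated at r = 0.664 (permutation p = 1e-05, adjusted p = 2e-05; rho = 0.587, adjusted p = 4e-05), and at r = 0.584 without the 2 farthest mice. The periportal and the pericentral gene did not run against each other, since Cps1 and Glul had r = 0.512 (permutation p = 0.00028, adjusted p = 0.000308; rho = 0.39, adjusted p = 0.00734; r = 0.437 without the 2 farthest mice) and Arg1 and Glul r = 0.509 (permutation p = 0.00036, adjusted p = 0.00036; rho = 0.349, adjusted p = 0.0166; r = 0.325). For Gpt, r was 0.642 with Cps1 (permutation p = 1e-05, adjusted p = 2e-05; rho = 0.556, adjusted p = 0.00011; r = 0.557) and 0.572 with Arg1 (permutation p = 5e-05, adjusted p = 7e-05; rho = 0.45, adjusted p = 0.00204; r = 0.371). In all, 11 correlations were computed, all tests were two-sided, and 1e-05 is the smallest p the permutations can give. These tests do not compare a pair with other transcripts. By the same centred values, r was above 0.5 for 888 transcripts with Cps1, 826 with Arg1, 534 with Glul and 1270 with Gpt. The median r over all transcripts was -0.107, -0.09, -0.11 and -0.156 in that order. An r of this size is thus not particular to these enzymes. The mice share replicate numbers and perhaps cages, so they are not fully independent. Within replicate numbers, r was positive in 5 of 6 for Cps1 and Arg1 (between -0.078 and 0.929), in 6 of 6 for Glul and Gpt (0.102 to 0.805) and for Cps1 and Gpt (0.602 to 0.95), in 5 of 6 for Cps1 and Glul (-0.568 to 0.796) and for Arg1 and Gpt (-0.514 to 0.869), and in 4 of 6 for Arg1 and Glul (-0.423 to 0.842).

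The array slope moved with each of the 4 enzymes over the same mice. It correlated with Cps1 at r = 0.704 (permutation p = 1e-05, adjusted p = 2e-05; rho = 0.639), with Arg1 at r = 0.672 (p = 2e-05, adjusted p = 3e-05; rho = 0.604), with Glul at r = 0.562 (p = 7e-05, adjusted p = 9e-05; rho = 0.53) and with Gpt at r = 0.707 (p = 1e-05, adjusted p = 2e-05; rho = 0.702). By construction the slope is higher on an array whose bright transcripts read higher, and the probesets of these enzymes are brighter than between 90.0% and 99.9% of transcripts. With the slope regressed out of both genes, a setting chosen after seeing the data, r was 0.431 for Cps1 and Arg1 (permutation p = 0.00233), 0.457 for Glul and Gpt (p = 0.00117) and 0.287 for Cps1 and Gpt (p = 0.0496). It was 0.198 for Cps1 and Glul (permutation p = 0.179), 0.214 for Arg1 and Glul (p = 0.148) and 0.185 for Arg1 and Gpt (p = 0.211). Under this setting too, r was larger within the periportal pair and for Glul with Gpt than for either periportal gene with Glul. With values also centred on replicate number instead, r was 0.863 for Cps1 and Gpt, 0.745 for Cps1 and Arg1 and 0.67 for Arg1 and Gpt. It was then 0.625 for Glul and Gpt, 0.579 for Cps1 and Glul and 0.524 for Arg1 and Glul. Gpt thus had a larger r with each periportal gene than with Glul there. The differences between correlations were not tested.

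**Figure D4:**
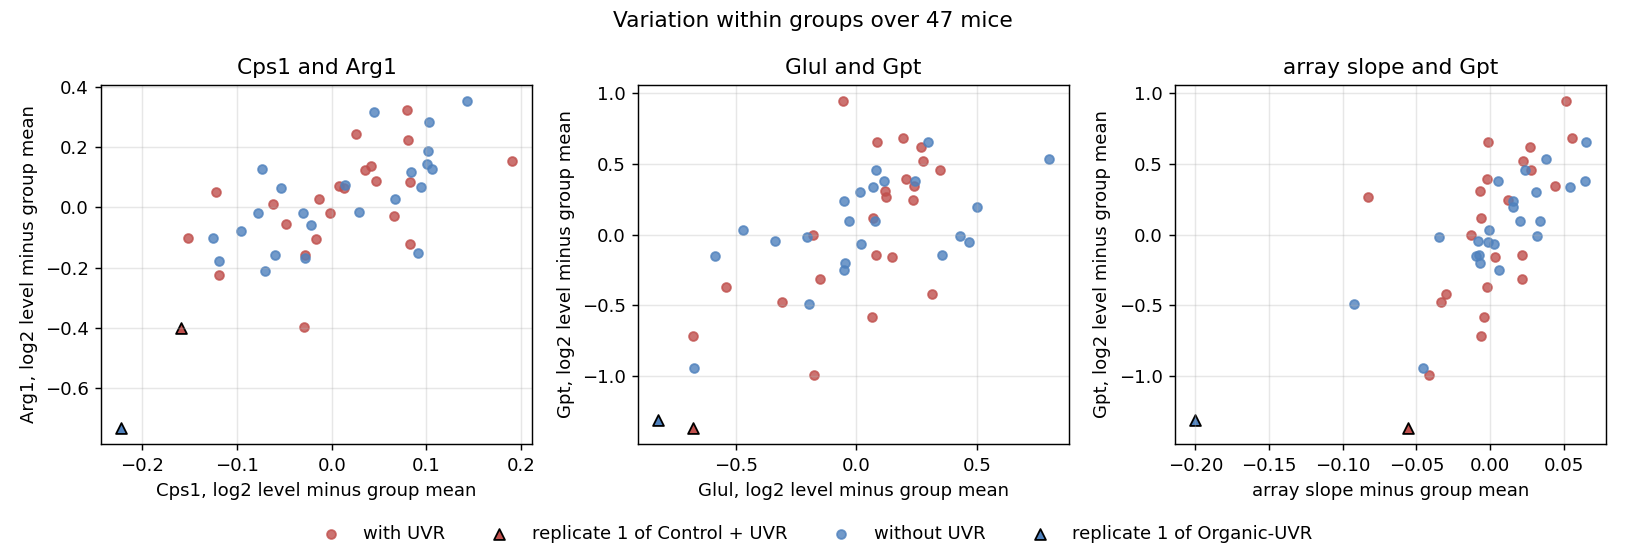
Cps1 and Arg1 (left), Glul and Gpt (middle) and array slope and Gpt (right) over 47 mice, each value minus its group mean (log2 level; slope without unit). Points are mice, red with UVR and blue without; the triangles, replicate 1 of Control + UVR and of Organic-UVR, lie at low values in each panel, and r is 0.70, 0.664 and 0.707.

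By the same centred values, the 3 named transcripts most like Cps1 were Dlst (r = 0.822), a subunit of 2-oxoglutarate dehydrogenase, Mat1a (0.819), the liver enzyme that makes S-adenosylmethionine, and Pm20d1 (0.817), a secreted enzyme that joins amino acids to fatty acids. Those most like Arg1 were Gpld1 (0.817), a secreted phospholipase, Amacr (0.814), which acts on branched fatty acids, and Glud1 (0.806), glutamate dehydrogenase, which releases ammonia from glutamate. Glul ran closest to Cyp27a1 (0.816), a bile acid enzyme, Rdh16 (0.812), a retinol dehydrogenase, and Lect2 (0.786), a secreted protein. Cyp27a1 and Lect2 are also on the list of pericentral genes, while Fbp1 of the periportal list had r = 0.75 with Glul. Gpt ran closest to Dcxr (0.925), a xylulose reductase, Adssl1 (0.921), which makes adenylosuccinate, and Gcgr (0.915), the glucagon receptor, and 178 transcripts had an r above 0.8 with it, against 6 for Cps1, 4 for Arg1 and 3 for Glul. These values share the array slope and have no test.

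Nitrogen handling was followed further by lists, of which only a part is in the table used here. A gene counts as measured if it is in that table. The lists include the members. Cps1 and Arg1 are on the urea cycle and periportal lists, Glul on the glutamine and pericentral lists and Gpt on the aminotransferase list. The list counts and medians are thus not separate from the member results. The other measured urea cycle genes were Nags, Arg2 and Sirt5, so Otc, Ass1 and Asl were not measured. Of the urea cycle list 5 of 13 were measured and of the glutamine and glutamate list 8 of 33, and limma called 0 of them in any comparison. At most 2 of 5 urea cycle genes, in TiO2 + UVR against TiO2-UVR, and 1 of 8 glutamine genes had an unadjusted p under 0.05 in 1 comparison, and in TiO2 + UVR against TiO2-UVR the share of all transcripts at that limit was 6.65%. In Organic-UVR against Control-UVR, where 19.1% of transcripts were at that limit, 0 of 5 urea cycle genes had an unadjusted p under 0.05 (median difference -0.11, all transcripts 0.03), against 1 of 8 on the glutamine list (median -0.04). By the F test over groups, Nags (limma adjusted p = 0.683) and Arg2 (0.699) came nearest on the urea cycle list. The product of Nags makes the activator of Cps1. Arg2, the mitochondrial arginase, was dim at a mean level of 4.57, where the lowest array median was 5.12. On the glutamine list the nearest were Abat, which breaks down GABA (limma adjusted p = 0.329, with -0.41 in Organic-UVR against Control-UVR), and Glud1 (adjusted p = 0.785).

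On the list of aminotransferases and deaminating enzymes, 8 of 29 measured, Hal fell in TiO2 + UVR and Organic-UVR and Amdhd1 fell in Organic-UVR against Control-UVR, both of them enzymes of histidine breakdown, a route that frees ammonia and yields glutamate. Hal, histidase, lay (lowest, median, highest) at 9.19, 9.68 and 10.15 in TiO2 + UVR, 9.23, 9.69 and 10.21 in Organic-UVR and 9.98, 10.46 and 10.68 in Control-UVR, so the groups overlapped a little. On the log2 scale Hal differed from Control-UVR by -0.75 in TiO2 + UVR (SE 0.15, limma adjusted p = 0.012) and by -0.72 in Organic-UVR (SE 0.15, adjusted p = 0.0126). In TiO2 + UVR it was also 0.86 lower than in TiO2-UVR (9.67 ± 0.31 against 10.52 ± 0.22, adjusted p = 0.00144) and 0.62 lower than in Control + UVR (adjusted p = 0.047). The last of these lost its call without Control + UVR replicate 4, 5 or 6 or TiO2 + UVR replicate 4 or 6 (adjusted p between 0.11 and 0.207). Amdhd1, imidazolonepropionase, lay at 7.84, 8.79 and 8.97 in Organic-UVR and 9.18, 9.45 and 9.59 in Control-UVR, with no overlap, and differed by -0.82 (SE 0.17, limma adjusted p = 0.01). Neither was called in Organic + UVR against Control-UVR, where Hal differed by -0.40 (limma adjusted p = 0.178) and Amdhd1 by -0.38 (adjusted p = 0.243), nor was Amdhd1 in TiO2 + UVR (-0.57, adjusted p = 0.149). In a fit of Organic-UVR and Control-UVR alone neither gene was called (limma adjusted p = 0.224 for Hal and 0.125 for Amdhd1). Ftcd, another measured enzyme of histidine breakdown, was not called in any comparison (F test, limma adjusted p = 0.872). It differed by -0.066 in Organic-UVR against Control-UVR (SE 0.162, limma adjusted p = 0.845). The list medians against Control-UVR were -0.26 in Organic-UVR, -0.24 in Organic + UVR, -0.09 in TiO2 + UVR and -0.16 in Control + UVR. The median of all transcripts was about 0.03 in each. On the list, 2 of 8 were called in Organic-UVR and 1 of 8 in TiO2 + UVR, all lower. The count was 0 of 8 in Organic + UVR and in Control + UVR. Of all transcripts, 3.27% were called in Organic-UVR (73 higher, 248 lower) and 0.693% in TiO2 + UVR. The share was 1.65% in Organic + UVR and 0.0509% in Control + UVR.

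Neither the pericentral list (13 of 26 measured) nor the transporters (8 of 26) had a gene called by limma in any comparison. The most genes with an unadjusted p under 0.05 in any comparison were 3 of 13 pericentral genes, in TiO2 + UVR against Control + UVR (8.46% of all transcripts), and 2 of 8 transporters, in TiO2 + UVR against TiO2-UVR (6.65%) and in the interaction of UVR with TiO2 (8.49%). By the F test the nearest on these lists were Nr1i3, the receptor CAR (limma adjusted p = 0.487, 0.65 in TiO2 + UVR against Control-UVR with SE 0.24), Axin2, a Wnt target (adjusted p = 0.617), Slc38a9, a lysosomal amino acid sensor (adjusted p = 0.417), and Slc1a4, a neutral amino acid carrier (adjusted p = 0.465). Of 10 measured periportal genes of 25, Hal was the only one called, in the comparisons given above. In those comparisons between 0.652% and 3.27% of all transcripts were called. The median difference of the periportal list in Organic-UVR against Control-UVR was -0.14, against -0.08 for the pericentral list. Mean levels ran from 8.37 to 12.66 on the periportal list and from 6.00 to 10.99 on the pericentral list. The 10.99 is of Gstm3, and the next highest there was Glul at 10.80. Gstm3 lies on chromosome 3, but its probeset is numbered near that of Ddo on chromosome 10, so what it matches is uncertain. Organic-UVR also holds the array with the lowest slope, and the part of brightness in these medians was not tested. Of 20 measured factors of 34 known to act on these genes, Rspo3 was the only one called, in Organic + UVR against Control-UVR alone. Rspo3 amplifies the Wnt signal at the central vein. In that comparison 1.65% of all transcripts were called (25 higher, 137 lower), beside which 1 gene of 20 says little about these factors. Rspo3 lay (lowest, median, highest) at 5.87, 6.15 and 6.41 in Organic + UVR and 6.14, 6.74 and 6.93 in Control-UVR, overlapping, and differed by -0.53 (SE 0.14, limma adjusted p = 0.0698). That call was lost in 11 of 58 alternatives, 7 of which left out 1 array (replicate 2, 3, 4 or 6 of Organic + UVR or 1, 4 or 6 of Control-UVR, adjusted p between 0.11 and 0.228). Glul itself was 0.18 higher in Organic + UVR than in Control-UVR (interval -0.24 to 0.60).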

How the data were processed

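The authors deposited log2 values after robust multi-array average, which the submitters' processing notes name as RMA. Their methods describe batches of 1 chip per group and removal of batch effects, and whether the deposited values include that step is not given in the sources used here. The table used here holds 16383 probesets, of which 6568 controls were left out, and 9815 transcripts were tested. The paper analysed more gene transcripts on this array, so the table holds only a part of them. Symbols came from the platform annotation, updated by Entrez number against RefSeq (GRCm38.p6, 7421 of 7450 with 1 symbol matched), while 511 transcripts with several symbols and 1854 with none were tested but not named.

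limma 3.58.1 in R 4.3.3 (lmFit, contrasts.fit, eBayes) fitted all 8 groups with replicate number as a block, leaving 34 residual degrees of freedom. P-values were adjusted by Benjamini-Hochberg across the 9815 transcripts and called under 0.1, the false discovery rate of 10% that the methods set. Nothing says that the replicate number is the batch. Samples with the same number in different groups correlated, after centring on groups, at a median r of 0.145 (103 of 161 pairs over 0.1), and those with different numbers at -0.032. Intervals are 95% intervals of the fit. Correlations used 100000 permutations in Python 3.11.15 with numpy 2.4.6. Scripts were tested on simulated data.

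The members and the gene lists were chosen with earlier results of these data known. Named genes are the members, the 3 transcripts most like each, and per list the called genes or, with none called, the 2 with the smallest F test p. Alternatives were no block, the compared groups alone, a trended prior, array weights, the array slope as a covariate, quantile normalisation, a threshold of 0.05, leaving out dim transcripts, the mean of a gene's probesets and leaving out each array. The dimmer Glul probeset, leaving out replicate 1 of Organic-UVR and of Control + UVR together, and slope-adjusted correlations were chosen after seeing the data.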

Additional observations from a re-analysis of the deposited data

Results flagged for a closer look

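In 4 of 32 combinations of an enzyme and a group, 1 liver lay far from the others by Dixon's criterion, which chance meets in about 1 of 20. Arg1 was 10.6 in Organic-UVR replicate 1, where the next lowest liver had 11.36. Gpt was 6.94 in the same liver, next 8.24. Glul was 10.23 in Control + UVR replicate 1, next 10.97. Gpt was 9.01 in Control-UVR replicate 6, the highest of its group, next 8.50. The array slope was 0.772 in Organic-UVR replicate 1, 0.928 in Control + UVR replicate 1 and 1.051 in Control-UVR replicate 6, the lowest, lowest and highest of their groups.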

How the results depend on the processing

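Over 58 alternatives the count of members called stayed at 0 in every comparison except Organic + UVR against Control-UVR. There array weights called 1 (Gpt, -0.52, limma adjusted p = 0.0986, the smallest of any member under any alternative). Under that setting 1460 of the 9815 transcripts were called in this comparison, against 162 in the main fit. Leaving out each array in turn gave 0 members called every time. Of 3712 member values under alternatives, 144 had the other sign while uncalled in both. Without the replicate block, 0 members were called, and Arg1 in Organic-UVR against Control-UVR was -0.26 (unadjusted p = 0.0481, adjusted p = 0.326). The numbers were not shown to pair the arrays.

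Leaving out replicate 1 of Organic-UVR and of Control + UVR together turned the interaction of UVR and Organic to -0.050 for Cps1 and -0.33 for Gpt, both uncalled. With the array slope regressed out, r of Cps1 and Glul (0.198), Arg1 and Glul (0.214) and Arg1 and Gpt (0.185) no longer passed. In the fit of the compared groups alone, the calls of Hal and Amdhd1 in Organic-UVR against Control-UVR (adjusted p = 0.224 and 0.125), of Hal in TiO2 + UVR against Control + UVR (0.455) and of Rspo3 (0.126) were lost; the cause was not tested. Signal over background was not measured, so how far it limits the dim genes of the lists is not known.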
